A study of Mus musculus with 2 samples.

Results

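Mitochondrial ribosomal proteins are the protein components of the ribosome inside mitochondria. Nuclear genes encode all of them, cytosolic ribosomes make them, and they are imported and assembled with mitochondrial rRNA into a large subunit, which carries the peptidyl transferase centre, and a small subunit, which decodes mRNA. The finished ribosome translates the core respiratory chain proteins that mitochondrial DNA encodes, so its supply is tied to oxidative phosphorylation in epithelial cells of the gut as in other tissues. Members were all genes whose symbol in the platform annotation was Mrpl (large subunit) or Mrps (small subunit) followed by a number. This gave 76 of the 18193 genes on the array, 47 of the large and 29 of the small subunit, read by 156 probe sets that carry 1 symbol each.

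The series profiled 2 cultures with 1 Affymetrix mouse array each. The first was parental CMT-93, a mouse rectal carcinoma line for which the labels name no added gene or deletion. The second was CMT-93-PM1, grown out from lung tumours that formed after parental cells had been injected into a tail vein of female C57BL/6 mice aged 6 weeks and left for 8 weeks. Both were kept in the same serum-containing medium, and 6 µg of total RNA went onto each array. The labels name 1 recovered culture and do not say how many mice or tumours it came from, or whether it is a clone. With 1 array per culture there is no replicate check, no test and no p-value for any difference, and the culture, the labelling and the array cannot be told apart from the line.

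Values are log2 signals as deposited. A log2 ratio is the lung-recovered minus the parental value, so a negative ratio is a lower signal in the lung-recovered line. Each gene was represented by its brightest probe set, and a gene counted as measured when its signal was above the 40th percentile of its array on at least 1 array, 4.69 (parental) and 4.59 (lung-recovered). The array medians were 5.36 and 5.26, and 13333 genes were measured. Epithelial genes Epcam (10.36 and 11.20), Cdh1 (12.66 and 12.52), Krt8, Krt18 and Krt19 were bright on both arrays, while the intestinal genes Vil1, Cdx1, Krt20 and Lgals4 were at the floor on both and Cdx2 read 5.24 and 5.08. Ptprc, Adgre1 and Itgam of leukocytes and Col1a1, Col3a1, Pdgfra and Lum of fibroblasts were at the floor on both arrays. So were Pecam1 and Emcn of endothelium and Sftpa1 and Scgb1a1 of lung epithelium. Cd3e (6.01 and 6.00), Cd79a (4.97 and 4.82) and Lyz2 (5.53 on both) of leukocytes read above it. So did Col1a2 (5.65 and 5.34), Pdgfrb (4.96 and 4.80) and Dcn (5.30 on both) of fibroblasts and Kdr (5.94 and 5.89) of endothelium. In lung epithelium, Sftpb read 6.70 and 6.32, Ager 6.15 and 5.45, and Hopx 5.69 and 5.35. Sftpc (5.04 and 4.57) was above the floor on the parental array only. Of 23 markers of other cell types 12 were measured, and 1 of these, the endothelial cadherin gene Cdh5, was past 2-fold, at 4.21 and 9.30. In bulk RNA, fewer cells of a type and less RNA per cell cannot be told apart.

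All 76 members were measured, each on both arrays, and the lowest member value lay 3.35 log2 above the higher floor. The members were bright. Their median signal was 10.01 log2, above 83.3% of measured genes, and mean signals ran from 8.24 to 11.32. They were mostly lower in the lung-recovered line, by a small amount. Of the 76 genes 54 had a ratio below 0, 20 above 0 and 2 were equal on both arrays, so 71.1% were lower and 26.3% higher, where 48.8% and 49.2% of all measured genes were. With both arrays scaled to equal medians 55.3% of members and 37.9% of all measured genes were below 0, and after quantile normalization 81.6% and 50.1%. The median member ratio was -0.15, or -9.87% on the linear scale, with the middle quartiles between -0.36 and 0.01; the median of all measured genes was 0.00. Among the 5153 measured genes within the same range of signal the median was 0.07 and 42.7% were below 0. No member reached 2-fold in either direction, where 6.97% of all measured genes did.

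**Figure D1:**
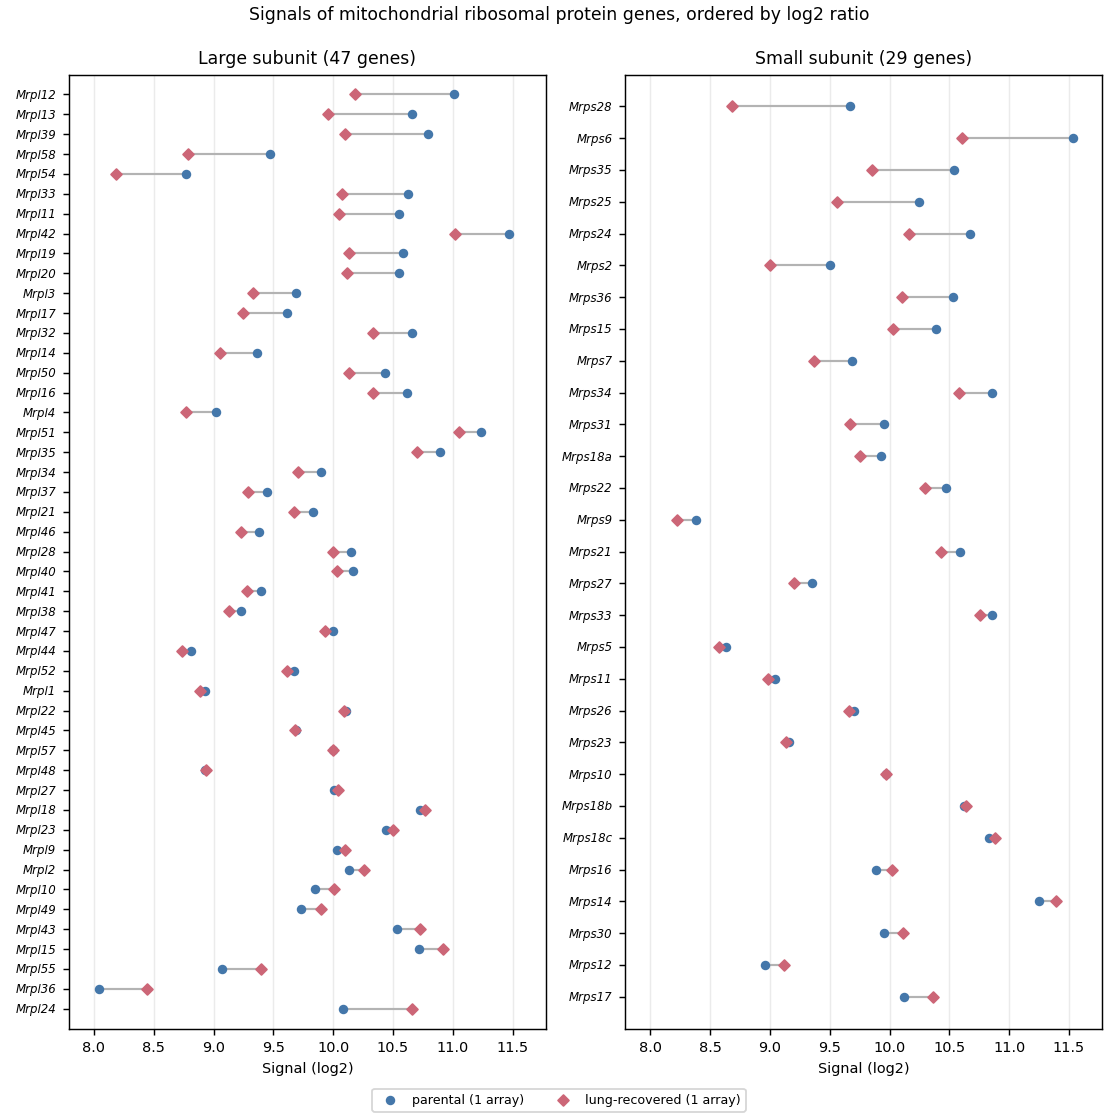
Log2 signal of each of the 76 genes in parental (circle) and lung-recovered cells (diamond), in separate panels for the large and the small subunit and ordered by ratio from lowest at the top. In both panels the diamond lies left of the circle for most genes, from -0.99 for Mrps28 to 0.58 for Mrpl24.

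At 1.5-fold or more, 9 members were lower and 0 higher. That is 11.8% lower, where 6.95% of all measured genes were, and 0 higher where 11.5% were. The spread available here is technical and comes from several probe sets of 1 gene on the same arrays. Among the 36 members with more than 1 probe set above both floors, the SD of the ratio between probe sets had a median of 0.17 and a 75th percentile of 0.24. Against this spread, 20 members were lower and 2 higher by more than 0.35, which is 2 times that median SD, where 15.9% of all measured genes were lower and 21.5% higher by as much. The other 54 members differed by less.

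The medians of the subunits were close to each other. The large subunit had a median ratio of -0.15 (quartiles from -0.34 to 0.02) and the small subunit of -0.16 (from -0.36 to 0.00), a difference of 0.01. In the large subunit 33 of 47 genes were below 0 and 13 above, and in the small subunit 21 of 29 and 7. At 1.5-fold or more 5 large subunit genes (10.6%) and 4 small subunit genes (13.8%) were lower. The brightness of the subunits was also alike, at median signals of 10.02 and 9.97. The SD of the ratio over genes was 0.30 in the large and 0.32 in the small subunit. The large subunit ran from -0.83 to 0.58 and the small subunit from -0.99 to 0.24. Each of these ends is 1 gene read by 1 probe set. No test was made, since genes are not replicates.

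**Figure D2:**
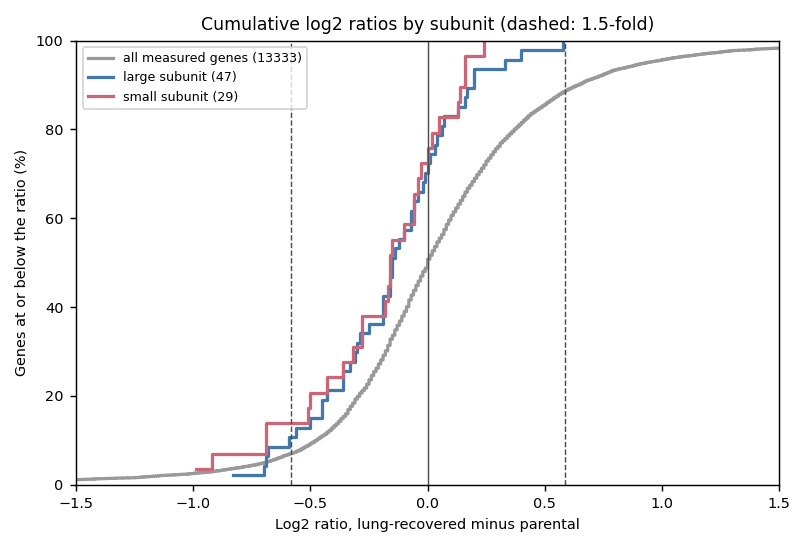
Cumulative share of genes (%) at or below each log2 ratio for the 47 large subunit genes, the 29 small subunit genes and all 13333 measured genes, with dashed lines at 1.5-fold. The curves of both subunits overlap, with medians of -0.15 and -0.16, left of the 0.00 of all genes. At the low end they begin at -0.83 and -0.99, while 340 of all measured genes were at least 2-fold lower.

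The small subunit held the members furthest from 0. Mrps28, the counterpart of bacterial S1, read 9.67 in parental and 8.68 in lung-recovered cells, 1.99-fold lower by its only probe set. Mrps6, the counterpart of bacterial S6 and among the brightest small subunit genes, read 11.53 and 10.61, 1.89-fold lower, and its other probe set gave a ratio of -0.88. The inositol transporter gene Slc5a3 overlaps the Mrps6 gene in the mouse gene table, and its own probe set read 10.30 and 9.42, a ratio of -0.88, so signal that both genes share could not be separated here. Mrps25, a protein of the small subunit without a bacterial counterpart, read 10.25 and 9.56, 1.61-fold lower, and its dimmer probe sets gave ratios of -0.81 and -1.21. Its gene overlaps Nr2c2, a nuclear receptor gene that read 9.95 and 9.21 (-0.74), and shared signal could not be separated here either. Mrps35, also without a bacterial counterpart, read 10.54 and 9.85, 1.61-fold lower. Mrps6 and Mrps25 were lower by each of their probe sets, while Mrps28 and Mrps35 have 1 probe set each.

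In the large subunit the lowest ratio belonged to Mrpl12, the counterpart of the bacterial L7/L12 stalk protein, which recruits translation factors to the ribosome. It read 11.01 and 10.18, 1.78-fold lower by its only probe set. Mrpl13, which has a bacterial counterpart, read 10.66 and 9.96, 1.62-fold lower, with ratios of -0.60 and -0.33 by its dimmer probe sets. Mrpl39, specific to mitochondria, read 10.79 and 10.10, 1.61-fold lower, and -0.63 by its other probe set. Mrpl58 encodes a peptidyl-tRNA hydrolase built into the large subunit and able to free stalled ribosomes. It read 9.47 and 8.79, 1.60-fold lower by its only probe set above both floors. Mrpl54, among the dimmest large subunit genes, read 8.77 and 8.18, 1.51-fold lower, but its other probe set gave -0.27, and it lay within 1.5-fold by the median over its probe sets (-0.43). Of the 9 genes past 1.5-fold in both subunits, 4 have a bacterial counterpart and 5 are specific to mitochondria. These are 9.09% of 44 members with a counterpart and 17.9% of 28 specific ones. Among all measured genes 6.95% were at least 1.5-fold lower.

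Next in order came members within 1.5-fold, which were named after their values were seen. Mrpl33 read 10.63 and 10.07, Mrps24, the counterpart of bacterial S3, 10.67 and 10.16, and Mrpl11, which sits at the base of the stalk, 10.55 and 10.05. Mrps2 read 9.50 and 9.00. Dimmer probe sets gave smaller differences for Mrpl33 (-0.19), Mrps24 (-0.32) and Mrpl11 (-0.41 and -0.24) and a larger one for Mrps2 (-0.62). From Mrps28 to Mrps2, neighbours in the order of ratios differ by less than the median SD between probe sets.

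Proteins that sit side by side in the stalk had unlike ratios. Mrpl12 had a ratio of -0.83 and Mrpl11 of -0.50, while Mrpl10, the protein through which Mrpl12 is anchored, read 9.85 and 10.01, a ratio of 0.16. Mrpl12 was named because it was past 1.5-fold, and Mrpl11 and Mrpl10 after their values were seen, so all 3 were picked with values in view. Mrpl12 and Mrpl10 were read by 1 probe set each.

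The 2 genes nearest 0 in each subunit were Mrpl57 (10.00 on both arrays), Mrpl45 (9.69 and 9.68), which lies at the tunnel exit and faces the inner membrane, Mrps10 (9.97 on both) and Mrps18b (10.62 and 10.64). Mrpl48 (8.93 and 8.94) lay as near 0 as Mrpl45 and was the dimmer of the pair. For Mrpl57 a dimmer probe set gave -0.61. Among the dimmest small subunit genes, Mrps9 read 8.38 and 8.22, Mrps5 8.63 and 8.57 and Mrps11 9.04 and 8.98. Mrpl44, a dim large subunit gene, read 8.81 and 8.74. Among the brightest of both subunits, Mrps14 read 11.25 and 11.39, Mrpl42 11.47 and 11.02 and Mrpl51 11.24 and 11.05. Mrps14 was not lower by this probe set, though its dimmer ones gave -0.11 and -0.17, and Mrpl51 lay further down by its dimmer ones, at -0.32 and -0.69.

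Higher signals were few. Mrpl24, a large subunit protein with a bacterial counterpart near the tunnel exit, read 10.08 and 10.66, 1.49-fold higher and just short of 1.5-fold by its only probe set. Its gene overlaps Rrnad1 in the gene table, which read 7.22 and 7.63 (0.41). Mrpl36, the dimmest member, read 8.04 and 8.44, 1.32-fold higher, and Mrpl55 read 9.07 and 9.40, 1.26-fold higher. The highest small subunit gene was Mrps17, at 10.12 and 10.36, 1.18-fold higher. Mrpl24, Mrpl55 and Mrps17 were named after their values were seen.

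Split by origin, the 44 members with a bacterial counterpart had a median ratio of -0.16 and the 28 that exist only in mitochondrial ribosomes of -0.15. Of the first 65.9% were below 0 and of the second 82.1%. Those with a counterpart ran from -0.99 to 0.58 and those without from -0.69 to 0.20. Symbol and place in the ribosome disagree for a few genes. Mrps30 (9.95 and 10.11) and Mrps18a (9.93 and 9.75) encode proteins that sit in the large subunit despite their symbols, and Mrps36 (10.53 and 10.10) is a component of the oxoglutarate dehydrogenase complex. With these placed by structure, the medians were again -0.15 for the large and -0.16 for the small subunit. Of the 3 relatives of bacterial S18, Mrps18a had a ratio near the median of the members, at -0.18. The others were close to 0, at 0.02 for Mrps18b and 0.05 for Mrps18c (10.83 and 10.88), the last of which takes the place of S18 itself.

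The probe sets of a member mostly pointed the same way. Of the 36 members with several probe sets above both floors, 22 had all of them below 0, 2 had all above 0 and 12 had them on both sides of 0 or at 0. The 67 dimmer probe sets above both floors were not used for the ratio that represents each member, though they entered the SD between probe sets. Their median ratio was -0.21. Of them 56 (83.6%) were below 0, where 47.7% of the dimmer probe sets of all genes were. The 22 members make 61.1% of the 36, where 28.3% of all genes with several probe sets had all of them below 0. They read the same 2 RNA samples and are no replicate of the cultures. In 2 members the probe sets disagreed by 0.5 or more across 0. Mrpl15 had 7 probe sets above both floors, from -0.89 to 0.29, with the brightest at 10.72 and 10.92. Mrpl17 read 9.61 and 9.25 by its brightest, and the others gave -1.20 and 0.05. A further 3 dim probe sets were above the floor on the parental array only and were lower, at least 2.53-fold for Mrpl1, whose brightest probe set read 8.93 and 8.89.

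**Figure D3:**
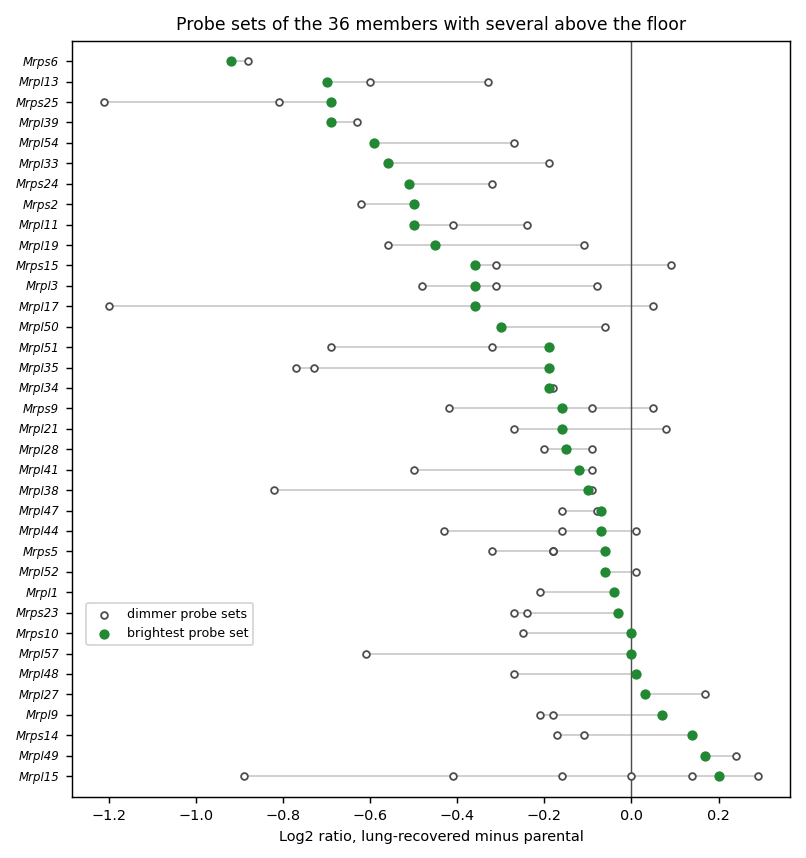
Log2 ratio of every probe set above both floors for the 36 members that have several, with the brightest filled and the dimmer ones open. Most points lie left of 0, and the widest spreads belong to Mrpl17 (SD 0.64), Mrpl57 (0.43), Mrpl38 (0.42) and Mrpl15 (0.41).

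Subunit proteins that carry other symbols were read beside the members. In the small subunit, Chchd1 read 10.56 and 9.94, 1.54-fold lower, Ptcd3, a pentatricopeptide repeat protein, 10.07 and 9.49, and Dap3, a GTP-binding protein first known from cell death, 10.10 and 10.08. In the large subunit, Gadd45gip1 read 11.13 on both arrays. Aurkaip1 was not analysed here.

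The machinery around the ribosome had medians on the same side. Of all measured genes 48.8% were below 0, 6.95% were at least 1.5-fold lower and 11.5% at least 1.5-fold higher. Against the 6.95%, the assembly list held a smaller share, and the lists after it a larger one made of few genes. Of 29 assembly and rRNA modification genes 20 were below 0, with a median of -0.16, 1 at least 1.5-fold lower and 0 higher. Fastkd2, an RNA-binding protein needed for large subunit assembly, read 8.27 and 7.53, 1.67-fold lower, and Gtpbp6 read 8.55 and 7.99. Tfb1m, which dimethylates the small subunit rRNA, read 7.94 and 8.52, 1.49-fold higher. Of 12 translation factors 9 were below 0 (median -0.30), with 2 at least 1.5-fold lower and 1 higher. These were Mtres1 (10.02 and 9.24), which helps rescue stalled ribosomes, and Oxa1l (8.08 and 7.44), which inserts new proteins into the inner membrane, against the release factor gene Mtrf1l (6.39 and 7.04).

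Of 19 mitochondrial aminoacyl-tRNA synthetase and amidotransferase genes, which charge the tRNAs, 13 were below 0, with a median of -0.18, 3 at least 1.5-fold lower and 0 higher. The tryptophan enzyme gene Wars2 read 7.70 and 6.73, 1.96-fold lower, and Hars2 (8.30 and 7.50) and Cars2 (7.18 and 6.38) were each 1.74-fold lower. Of 12 genes for the upkeep and transcription of mitochondrial DNA 9 were below 0, with a median of -0.24, 2 at least 1.5-fold lower and 0 higher. Tefm, a transcription elongation factor, read 7.60 and 6.93 and Lrpprc, which stabilises mitochondrial mRNA, 10.60 and 9.95. The packaging and transcription factor gene Tfam read 9.84 and 9.36 but had a ratio of -0.03 by its other probe set, and the RNA polymerase gene Polrmt read 8.71 and 8.48. The transcripts that mitochondrial DNA itself encodes were not analysed here.

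Among regulators of mitochondrial biogenesis the largest differences belonged to a nuclear receptor and its coactivator. Esrra, the orphan receptor ERR-alpha, read 9.97 and 8.80, 2.25-fold lower, and -0.99 by its other probe set. Ppargc1a, the coactivator PGC-1alpha, which works through ERR-alpha and NRF1, read 11.33 and 10.35, 1.97-fold lower, and its 5 probe sets gave ratios from -1.05 to -0.75. The related gene Pprc1 read 9.37 and 8.77, 1.52-fold lower, and Ppargc1b was at the floor on both arrays. Factors that bind promoters of this class read as follows. Yy1 had the highest ratio among the measured regulators, at 11.11 and 11.56, 1.37-fold higher, with ratios from 0.45 to 0.82 by its 4 probe sets. Nrf1 read 7.42 and 7.62, with ratios from 0.08 to 0.77 by its probe sets, and Gabpa 9.93 and 10.10, with ratios from -0.52 to 0.17. Myc read 9.77 and 9.59. Of 9 measured regulators 6 were below 0, with a median of -0.18. Whether any of them bears on the members was not tested.

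**Figure D4:**
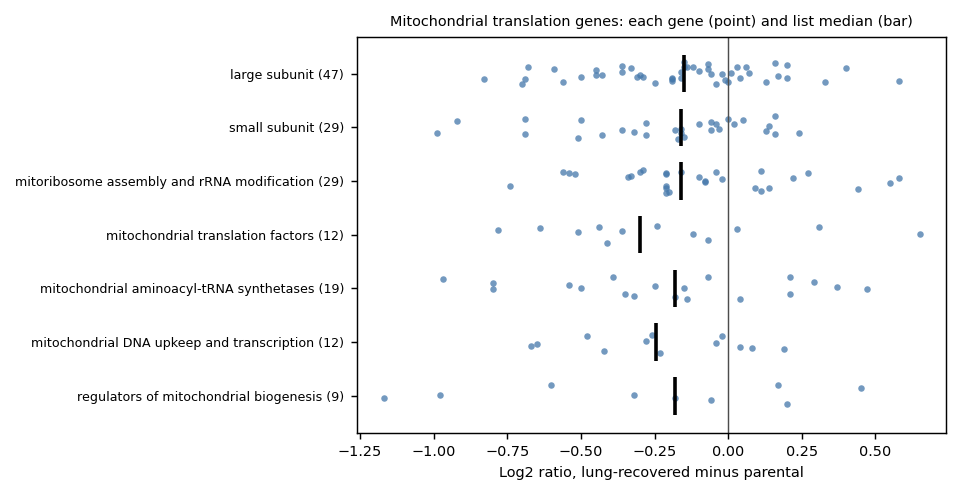
Log2 ratio of each gene (point, with vertical jitter) and the median of each list (bar) for both subunits and for 5 lists of genes of mitochondrial translation and biogenesis. Every bar lies left of 0, between -0.30 and -0.15, and points of every list lie on both sides of 0.

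Families of comparable function, picked by symbol after the members had been described, also had median ratios below 0. The median ratio was -0.18 for 39 cytosolic ribosomal protein genes and -0.25 for 35 genes with Nduf symbols, mostly of complex I. For 40 genes of ATP synthase and complexes III and IV it was -0.32. In this order, 35, 32 and 36 of the genes were below 0. The members' own share of 71.1% lay between these and the 48.8% of all measured genes. The families were brighter than the members, with median signals of 13.20, 11.34 and 12.37 log2 in the same order, against 10.01. No genes of like signal were set beside them. The median ratios compare genes on the same 2 arrays and were not tested.

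Promoter sequences were examined as a description only. RefSeq windows of the GRCm38.p6 assembly, from 250 bases before to 50 bases after the gene's start, existed for 67 members (73 windows). Matches on either strand were sought for 5 motifs: an ETS motif that GABP binds (CCGGAAG), the palindrome that NRF1 binds, one arm of it (CATGCGC), a YY1 motif and the E-box of MYC (CACGTG). The 2 arms of an NRF1 palindrome overlap and count as 1 window with a match. Stretches of 150 bases are shown, each from 140 bases before to 10 after the start, with matches in capitals. Mrpl39 and Mrpl58 are the genes past 1.5-fold that hold a match, Mrpl12 is the large subunit gene with the lowest ratio and Mrpl24 the member with the highest.
Mrpl39 (chr16:84735235-84735384, minus strand): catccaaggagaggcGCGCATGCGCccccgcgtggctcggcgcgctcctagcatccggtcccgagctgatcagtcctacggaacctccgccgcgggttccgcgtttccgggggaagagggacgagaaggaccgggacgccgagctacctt
Mrpl58 (chr11:115403612-115403761, plus strand): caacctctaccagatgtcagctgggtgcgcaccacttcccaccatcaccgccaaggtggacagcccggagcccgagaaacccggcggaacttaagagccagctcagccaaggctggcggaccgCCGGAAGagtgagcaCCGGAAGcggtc
Mrpl12 (chr11:120484497-120484646, plus strand): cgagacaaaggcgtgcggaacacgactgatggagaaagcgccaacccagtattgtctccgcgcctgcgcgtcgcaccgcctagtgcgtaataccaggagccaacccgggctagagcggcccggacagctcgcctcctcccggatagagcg
Mrpl24 (chr3:87919404-87919553, plus strand): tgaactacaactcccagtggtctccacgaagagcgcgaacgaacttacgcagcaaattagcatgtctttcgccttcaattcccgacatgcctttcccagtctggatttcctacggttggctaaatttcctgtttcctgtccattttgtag
The capitals mark, in Mrpl39, overlapping NRF1 arms on opposite strands that begin 125 and 122 bases before the start, and, in Mrpl58, ETS motifs that begin 17 and 2 bases before the start.

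The ETS motif was the most frequent of the 5. It was present in 34.2% of member windows, in 16.0% of the windows of all measured genes and in 8.86% of all windows in the table. The NRF1 arm was in 11.0%, 6.18% and 3.91%, its palindrome in 4.11%, 1.81% and 0.971%, and the YY1 motif in 6.85%, 1.73% and 0.852%. The E-box was in 9.59%, 9.54% and 7.15%, but 3 of its 7 member windows belong to Mrpl2 alone. Counted by gene, it was in 7.46% of members and 11.4% of measured genes, and the ETS motif in 37.3% and 18.6%. By subunit the ETS motif was in 14 of 46 large and 11 of 27 small subunit windows. Of the same windows, the NRF1 arm was in 7 large and 1 small, and its palindrome in 3 and 0. The YY1 motif was in 2 and 3, and the E-box in 6 and 1. The 25 members with the ETS motif had a median ratio of -0.06 and the 42 without it of -0.15. For the other motifs the medians with and without a match were -0.18 (8 members) and -0.14 for the NRF1 arm, -0.33 (3 members) and -0.13 for its palindrome, -0.16 (5 members) and -0.11 for YY1, and 0.05 (5 members) and -0.15 for the E-box. Of the 9 members lower by 1.5-fold 5 had a window, and 1 of these held the ETS motif and another the NRF1 palindrome, while 0 held the YY1 motif or the E-box. A match describes letters and is not evidence of binding.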

How the data were processed

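Total RNA of 1 parental and 1 lung-recovered culture was read on 1 array each. The deposited values are log2 signals per probe set, with the base taken from the values. The submitters' processing notes name MAS5 without saying for which step, and the scaling applied before deposit is not stated in them. The values were used as deposited.

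Probe sets were named through the platform annotation (34945 with 1 symbol), with symbols updated by Entrez identifier to the GRCm38.p6 gene table, which held all 76 members. Another 4 probe sets name a member together with a second gene and were left out, so Mrpl30 and Mrpl53 are not members. The array has no measure of depth, and the number of arrays limits precision. Signals at the 40th percentile floor have no order, and floors were applied before ratios were taken. Python 3.11.15 with pandas 2.3.3, numpy 2.4.6, statsmodels 0.14.6 and matplotlib 3.10.9 was used, and the gene table was tested on simulated data.

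Named by rule were members past 1.5-fold (at most 24), and the 3 brightest, 3 dimmest and 2 nearest 0 of each subunit. So were those whose symbol and structural place differ, and those whose probe sets disagreed by 0.5 across 0. Further members were named after their values were seen. In other lists the 3 furthest from 0 were named. Members and lists were chosen with earlier results of these data known. Classes by bacterial counterpart were assigned from general knowledge, and Mrpl55 and Mrps36 were left unclassed. Mrps18a and Mrps18b, relatives of bacterial S18 at another site, were in neither class of the split by origin. Alternatives were floors at the 20th and 60th percentile and none, equal medians, quantile normalization, lowess with a span of 0.3, medians over probe sets, leaving out suffixed probe sets, and other subunit assignments.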

Additional observations from a re-analysis of the deposited data

How the results depend on the processing

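No paired analysis was possible because each group has 1 array, and for the same reason no array could be left out. Under all 10 alternatives the median ratio of the members was below 0, from -0.23 (quantile normalization and lowess) to -0.05 (equal medians), and the large minus small difference lay between -0.04 and 0.01. Equal medians raised the median of all measured genes to 0.10, and the members lay 0.15 below it, as they did with values as deposited. The share of members below 0 was 55.3% with equal medians, 81.6% with quantile normalization and 82.9% with lowess, against 71.1%, while that of all measured genes was 37.9%, 50.1% and 49.4%. The count of members at least 1.5-fold lower ran from 7 of 76 (equal medians) to 13 of 61 (with suffixed probe sets left out). With values as deposited, 6.95% of all measured genes were lower and 11.5% higher by as much. These shares were not taken under the alternatives, so the counts have no background there. The count at least 1.5-fold higher was 1 with equal medians, where Mrpl24 reached 0.68, and 0 under the others. Mrpl54 was within 1.5-fold with equal medians (-0.49) and by the median over its probe sets (-0.43), Mrpl58 with equal medians (-0.58), and the other 7 members past 1.5-fold stayed past it under every alternative that kept them. By the median over probe sets, 8 members moved by more than the median SD between probe sets and 68 did not. Without suffixed probe sets (names ending in _a_at, _s_at or _x_at) 61 members remained, and 7 of them moved by more than that SD. Mrpl15 went from 0.20 to -0.89, Mrpl17 from -0.36 to -1.20, Mrpl38 from -0.10 to -0.82, Mrpl35 from -0.19 to -0.73, Mrpl51 from -0.19 to -0.69, Mrpl9 from 0.07 to -0.21 and Mrpl21 from -0.16 to 0.08. The cause was not tested. Only 1 array per line limits every value here.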
